A study of Mus musculus with 12 samples.

Results

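The genes described here are 10 mouse genes of amino acid synthesis and uptake that are classed as targets of the transcription factor Atf4: Asns, Phgdh, Psat1, Shmt2, Mthfd2, Cth, Slc7a5, Slc3a2, Slc7a11 and Slc7a3. They were taken by symbol from the 19680 genes of the deposited count table, where each symbol was found, and all 10 were among the 11635 genes that passed the filter on low counts. The study sequenced total RNA, after depletion of ribosomal RNA, from the mouse embryonic stem cell line CJ9, and asks what part Arid4b, a subunit of a histone deacetylase complex, plays in lineage commitment. The groups were arid4b∆ cells directed to endoderm, wild type cells directed to endoderm, arid4b∆ cells directed to mesoderm and wild type cells directed to mesoderm, each for 5 days and each with 3 libraries. The labels do not say how the deletion was made, whether the arid4b∆ cells are 1 clone, or whether replicate libraries were separate cultures. The p-values therefore cover only the spread among the libraries sequenced, and that spread could be technical.

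Cells that run short of amino acids, or meet other stresses, phosphorylate the translation factor eIF2 alpha, and this raises translation of Atf4. Atf4 pairs with C/EBP proteins on composite DNA elements near genes that make asparagine, serine and one-carbon units and near genes of amino acid carriers. Pluripotent stem cells divide fast and draw heavily on serine, glycine and one-carbon metabolism, so these genes are also active without stress.

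Total counts lay between 10351074 and 35660108 per library, and 1949299 to 6678893 counts remained after the ribosomal RNA precursor Rn45s was left out. Mir6236 and Lars2 together held 49.7% to 69.5% of those remaining counts, and the 10 genes together 0.0342% to 0.0677%. Levels are given as CPM, each count over the size of its library as scaled by edgeR, with Rn45s left out. With library sizes before that scaling, 3 counts corresponded to 0.449 to 1.54 CPM. Arid4b itself was counted at 41.5 to 51.0 CPM in the 6 libraries labelled arid4b∆, against 36.7 to 46.4 CPM in the 6 wild type libraries, and was not called in endoderm (edgeR adjusted p = 0.365) or mesoderm (edgeR adjusted p = 0.601). Whole-gene counts therefore do not check the deletion, and every direction below rests on the labels, with "knockout" standing for libraries labelled arid4b∆. Primitive streak and mesoderm markers (T, Mixl1, Eomes, Pdgfra, Kdr and Mesp1) summed to 18.9 to 24.5 CPM in knockout endoderm, against 239 to 261 CPM in wild type endoderm. In mesoderm the sums were 24.0 to 34.7 CPM in knockout, with no count of Mesp1, against 226 to 472 CPM in wild type. Endoderm markers (Foxa2, Sox17, Gata6 and Cxcr4) summed to 2.88 to 6.39 CPM in knockout endoderm, against 74.6 to 111 CPM in wild type endoderm. In mesoderm they summed to 1.23 to 3.08 CPM in knockout, against 4.24 to 8.76 CPM in wild type. Wild type cells of both lineages thus held streak markers and wild type endoderm also held endoderm markers, while both knockout groups held these markers at low levels. The streak sums hold members that differ between the wild type lineages. Of these 6 genes, 1 was higher and 2 were lower in wild type endoderm than in wild type mesoderm. Eomes averaged 119 CPM in wild type endoderm and 58.05 CPM in wild type mesoderm, and T 46.3 and 219 CPM. Eomes had the highest mean of the 6 in both knockout groups, 15.3 CPM in endoderm and 16.7 CPM in mesoderm. In bulk RNA, fewer cells of a type and less RNA per cell cannot be told apart.

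Promoter windows of 7 of the 10 genes, Asns, Phgdh, Psat1, Shmt2, Mthfd2, Slc7a11 and Slc3a2, were found in the RefSeq table of the build GRCm38.p6, each running from 250 bases before to 50 bases after a start site. No window was found for Slc7a5 and Slc7a3, which rose in knockout cells of both lineages, or for Cth. Windows of 4 genes are printed, picked with the matches and the calls known. They are the carriers of the Atf4 element and the genes with a window that rose in knockout cells of both lineages. Whether the element bears on the rises was not tested. Asns and Slc7a11 hold the letters of the C/EBP-ATF response element, given in capitals, and Mthfd2 and Slc3a2 do not. The windows of Slc7a11, Mthfd2 and Slc3a2 lie inside the annotated gene spans, whose upstream ends are at 50499087, 83326011 and 8723369. No window at those ends was searched, and which start site the cells used was not tested. All are written 5′ to 3′ on the minus strand, on which the genes lie, at chr6:7693160-7693459 (Asns), chr3:50443564-50443863 (Slc7a11), chr6:83317555-83317854 (Mthfd2) and chr19:8713848-8714147 (Slc3a2).
Asns promoter: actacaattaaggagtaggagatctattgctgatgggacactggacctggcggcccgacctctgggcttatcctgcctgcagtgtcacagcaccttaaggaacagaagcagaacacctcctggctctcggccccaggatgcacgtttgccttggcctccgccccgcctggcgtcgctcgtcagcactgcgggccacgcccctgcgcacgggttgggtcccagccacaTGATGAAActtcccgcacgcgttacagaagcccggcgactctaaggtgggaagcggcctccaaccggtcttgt
Slc7a11 promoter: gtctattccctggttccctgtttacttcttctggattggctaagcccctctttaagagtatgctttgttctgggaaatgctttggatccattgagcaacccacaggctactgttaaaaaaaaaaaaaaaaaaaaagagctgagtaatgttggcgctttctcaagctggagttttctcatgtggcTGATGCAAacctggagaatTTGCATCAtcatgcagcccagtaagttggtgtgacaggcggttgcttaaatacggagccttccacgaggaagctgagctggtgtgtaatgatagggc
Mthfd2 promoter: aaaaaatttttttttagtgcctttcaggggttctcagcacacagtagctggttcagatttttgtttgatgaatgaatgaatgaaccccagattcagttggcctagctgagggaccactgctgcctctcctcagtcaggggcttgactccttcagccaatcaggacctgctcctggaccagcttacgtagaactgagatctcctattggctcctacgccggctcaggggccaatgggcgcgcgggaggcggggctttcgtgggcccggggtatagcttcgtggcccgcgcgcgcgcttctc
Slc3a2 promoter: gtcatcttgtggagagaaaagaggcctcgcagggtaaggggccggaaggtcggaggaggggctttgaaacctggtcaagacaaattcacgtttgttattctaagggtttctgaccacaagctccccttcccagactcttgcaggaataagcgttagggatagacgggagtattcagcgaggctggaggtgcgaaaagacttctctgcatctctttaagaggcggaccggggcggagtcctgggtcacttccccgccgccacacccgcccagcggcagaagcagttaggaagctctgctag

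The C/EBP-ATF response element was searched as TGATGNAA on both strands. It was found in 2 of the 7 genes, once in Asns, as TGATGAAA starting 23 bases upstream of the start site, and at a pair of places in Slc7a11, as TGATGCAA on the strand of the gene at 66 bases and on the opposite strand at 47 bases upstream. The same letters were in 1304 of 32851 promoter windows of the table (3.97%). The antioxidant response element, searched as TGACNNNGC, was in the windows of Asns and Phgdh and in 12.4% of all windows, and the cAMP response element TGACGTCA was in none of the 7 genes and in 1.79% of all windows. No motif overlapped another in these windows. These matches describe the letters alone, and a window without them says nothing about binding elsewhere.

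In cells directed to endoderm, 4 of the 10 genes rose in knockout and none fell. They were Mthfd2, Slc7a5, Slc3a2 and Slc7a3, a mitochondrial one-carbon enzyme and 3 chains of amino acid carriers. Over all tested genes 5.78% rose and 6.92% fell in this comparison (edgeR quasi-likelihood test, Benjamini-Hochberg adjusted p under 0.05). In cells directed to mesoderm, 6 of the 10 rose in knockout, the same 4 with Psat1 and Shmt2, and Cth fell, beside 8.93% of all tested genes that rose and 10.2% that fell. The median log2 fold change of the 10 genes was 0.32 in endoderm and 0.54 in mesoderm, where the medians over all tested genes were -0.0037 and 0.0071. Asns, Phgdh and Slc7a11 passed the test in neither lineage.

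**Figure D1:**
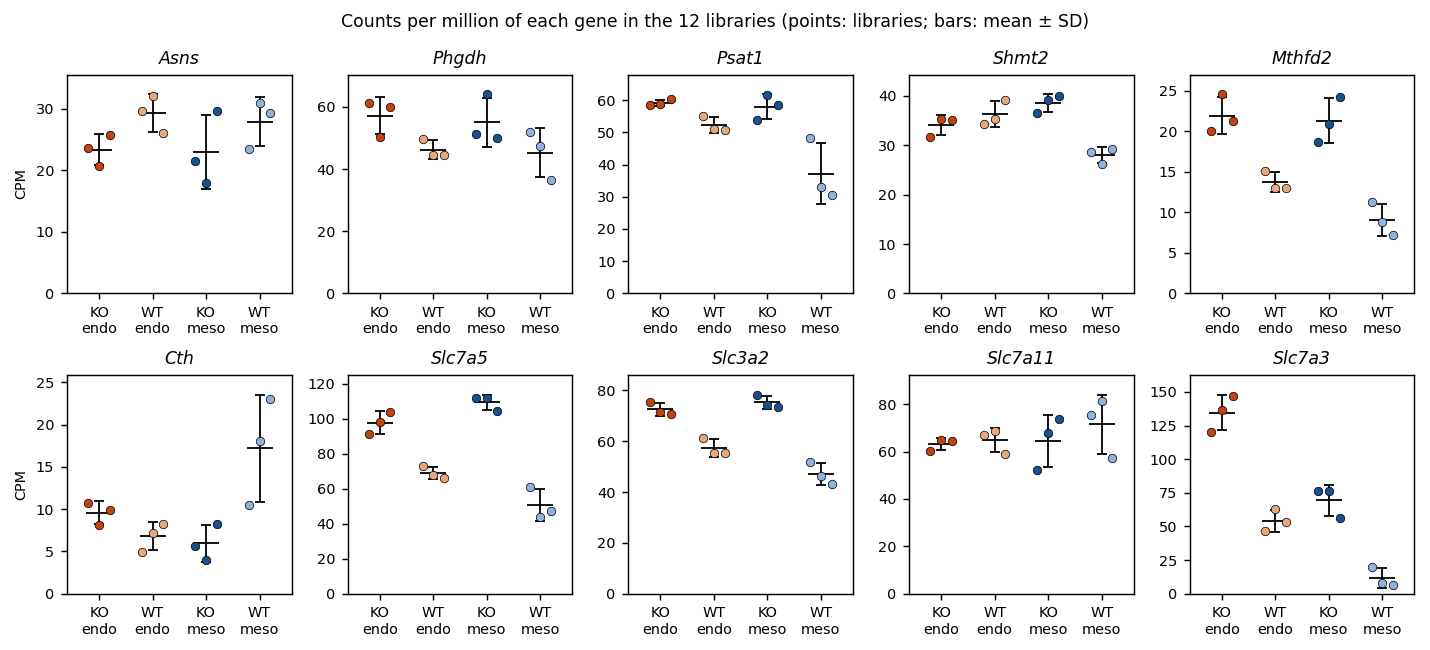
Level of each of the 10 genes in CPM (vertical axes, linear and starting at 0, a separate scale for each gene) in knockout endoderm, wild type endoderm, knockout mesoderm and wild type mesoderm. Points are the 3 libraries of a group and bars are the mean ± SD. Slc7a3 runs from 6.73 to 147 CPM over the 12 libraries, and Asns, Phgdh and Slc7a11 overlap between knockout and wild type mesoderm.

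Asns, asparagine synthetase (Entrez 27053, chr6:7675165-7693209), makes asparagine from aspartate and glutamine and is a textbook target of Atf4. Its level was 23.5, 20.7 and 25.7 CPM in knockout endoderm, against 29.7, 32.1 and 26.0 CPM in wild type endoderm. All knockout libraries lay below the lowest wild type library, the nearest by little. The log2 fold change between the groups was -0.34 ± 0.16 (SE, 3 libraries a group) and did not pass the test (edgeR adjusted p = 0.170). In mesoderm it was 21.5, 17.8 and 29.6 CPM in knockout, against 23.4, 30.9 and 29.3 CPM in wild type, and the groups overlapped (log2 fold change -0.25 ± 0.17, edgeR adjusted p = 0.326). Its printed window holds the C/EBP-ATF letters, and its mean was lower in knockout than in wild type in both lineages without a call.

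Phgdh, phosphoglycerate dehydrogenase (Entrez 236539, chr3:98313171-98339969), takes the first step of serine synthesis from a glycolytic intermediate. It stood at 61.3, 50.5 and 59.9 CPM in knockout endoderm, against 49.8, 44.4 and 44.4 CPM in wild type endoderm. The groups did not overlap, but the log2 fold change of 0.31 ± 0.13 did not pass the test (edgeR adjusted p = 0.129). In mesoderm the values were 51.2, 64.0 and 49.9 CPM in knockout, against 51.9, 47.4 and 36.5 CPM in wild type, with overlap (0.30 ± 0.13, edgeR adjusted p = 0.126). A call came with 2 other settings: in endoderm, fitting the 6 libraries compared alone (edgeR adjusted p = 0.0488), and in mesoderm, leaving out wild type mesoderm library 1 (edgeR adjusted p = 0.0274).

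Psat1, phosphoserine aminotransferase (Entrez 107272, chr19:15905123-15925059), takes the next step of the serine pathway. In endoderm it read 58.4, 58.9 and 60.3 CPM in knockout, against 55.0, 51.1 and 50.6 CPM in wild type. These groups did not overlap but lay close together, and the log2 fold change of 0.18 ± 0.12 was not called (edgeR adjusted p = 0.377). In mesoderm it read 54.0, 61.5 and 58.4 CPM in knockout, against 48.1, 33.0 and 30.5 CPM in wild type, a 1.55-fold rise (log2 0.64 ± 0.13, edgeR adjusted p = 0.00159). Wild type mesoderm library 1 was the nearest of its group to the knockout values.

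Shmt2, the mitochondrial serine hydroxymethyltransferase (Entrez 108037, chr10:127517123-127522444), splits serine into glycine and a one-carbon unit. It had 31.7, 35.2 and 35.2 CPM in knockout endoderm, against 34.3, 35.3 and 39.3 CPM in wild type endoderm, with overlap and a log2 fold change of -0.08 ± 0.11 (edgeR adjusted p = 0.690). In mesoderm it had 36.6, 39.1 and 40.0 CPM in knockout, against 28.7, 26.3 and 29.3 CPM in wild type, without overlap. The rise was 1.36-fold (log2 0.44 ± 0.11, edgeR adjusted p = 0.00767). Its annotated span overlaps that of Ndufa4l2, which held 16 counts over all 12 libraries.

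Mthfd2, the mitochondrial methylenetetrahydrofolate dehydrogenase and cyclohydrolase (Entrez 17768, chr6:83305704-83326011), carries the one-carbon unit on from Shmt2 and is known for its high activity in embryonic and proliferating cells. Its level was 20.1, 24.6 and 21.2 CPM in knockout endoderm, against 15.1, 13.0 and 13.0 CPM in wild type endoderm. It was 18.7, 20.9 and 24.3 CPM in knockout mesoderm, against 11.2, 8.76 and 7.24 CPM in wild type mesoderm. Knockout libraries lay above all wild type libraries in both lineages. The rise was 1.62-fold in endoderm (log2 0.70 ± 0.16, edgeR adjusted p = 0.00576) and 2.39-fold in mesoderm (log2 1.25 ± 0.18, edgeR adjusted p = 4.81e-05).

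Cth, cystathionine gamma-lyase (Entrez 107869, chr3:157894248-157925081), makes cysteine from cystathionine in the last step of transsulfuration. It was the member with the lowest level per length in knockout endoderm, wild type endoderm and knockout mesoderm, and the only one of the 10 that fell in knockout cells. In endoderm it had 10.8, 8.13 and 9.91 CPM in knockout, against 4.95, 7.20 and 8.19 CPM in wild type, and the groups overlapped (log2 fold change 0.47 ± 0.29, edgeR adjusted p = 0.334). In mesoderm it had 5.59, 4.0 and 8.27 CPM in knockout, against 10.5, 18.0 and 23.1 CPM in wild type, without overlap. Cth was 2.89-fold lower in knockout mesoderm (log2 -1.53 ± 0.29, edgeR adjusted p = 0.000567).

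Slc7a5 (Entrez 20539, chr8:121881146-121907686) is the light chain LAT1, which exchanges large neutral amino acids such as leucine. It read 90.9, 97.9 and 104 CPM in knockout endoderm, against 73.0, 67.9 and 66.1 CPM in wild type endoderm. In mesoderm it read 112, 112 and 104 CPM in knockout, against 60.9, 43.8 and 47.3 CPM in wild type. Neither lineage showed overlap, and the rise was 1.42-fold in endoderm (log2 0.50 ± 0.10, edgeR adjusted p = 0.00192) and 2.13-fold in mesoderm (log2 1.09 ± 0.11, edgeR adjusted p = 3.96e-07).

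Slc3a2 (Entrez 17254, chr19:8706882-8723369) is the heavy chain 4F2hc, which brings Slc7a5 and Slc7a11 to the cell surface. It read 75.5, 71.6 and 70.6 CPM in knockout endoderm, against 61.4, 55.2 and 55.4 CPM in wild type endoderm, without overlap. The 1.27-fold rise passed the test (log2 0.34 ± 0.093, edgeR adjusted p = 0.0175). This call was lost with DESeq2 (adjusted p = 0.0623) and without wild type endoderm library 2 (edgeR adjusted p = 0.0999), wild type endoderm library 3 (edgeR adjusted p = 0.0693) or knockout endoderm library 1 (edgeR adjusted p = 0.0538). In mesoderm it read 78.3, 74.1 and 73.3 CPM in knockout, against 51.9, 46.4 and 43.3 CPM in wild type, a 1.60-fold rise (log2 0.68 ± 0.099, edgeR adjusted p = 4.13e-05).

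Slc7a11 (Entrez 26570, chr3:50364936-50499087) is the light chain xCT, which takes up cystine in exchange for glutamate and feeds glutathione synthesis. It had 60.4, 64.8 and 64.5 CPM in knockout endoderm, against 66.9, 68.6 and 59.0 CPM in wild type endoderm. In mesoderm it had 52.0, 67.7 and 73.6 CPM in knockout, against 75.6, 81.4 and 57.4 CPM in wild type. Knockout and wild type libraries overlapped in both lineages, and the log2 fold changes were -0.04 ± 0.13 in endoderm (edgeR adjusted p = 0.904) and -0.12 ± 0.13 in mesoderm (edgeR adjusted p = 0.597).

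Slc7a3 (Entrez 11989, chrX:101079146-101090452) is the cationic amino acid transporter CAT3, a carrier of arginine and lysine. It read 121, 137 and 147 CPM in knockout endoderm, against 46.6, 62.9 and 53.4 CPM in wild type endoderm. In mesoderm it read 76.1, 76.0 and 56.0 CPM in knockout, against 20.2, 7.73 and 6.73 CPM in wild type. Every knockout library lay above every wild type library of its lineage, and the lowest knockout mesoderm library also lay above wild type endoderm libraries 1 and 3. The rise was 2.46-fold in endoderm (log2 1.30 ± 0.18, edgeR adjusted p = 2.35e-05) and 5.95-fold in mesoderm (log2 2.57 ± 0.24, edgeR adjusted p = 1.75e-07). Wild type mesoderm library 1 stood above the other libraries of its group, and without it the log2 fold change in mesoderm was 3.30. The annotated span of Snx12 overlaps that of Slc7a3, and Snx12 averaged 15.2 CPM in knockout endoderm, 14.5 CPM in wild type endoderm, 16.8 CPM in knockout mesoderm and 17.0 CPM in wild type mesoderm. Snx12 was not called in endoderm (edgeR adjusted p = 0.870) or mesoderm (edgeR adjusted p = 0.963).

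**Figure D2:**
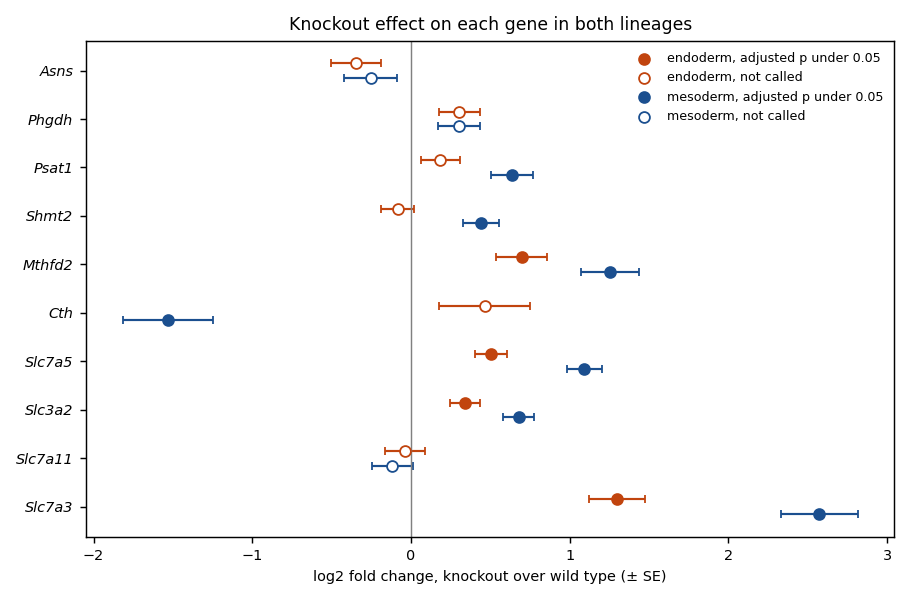
Log2 fold change of knockout over wild type (horizontal axis, ± SE) for each of the 10 genes in endoderm and in mesoderm, from 3 libraries a group. Filled points passed the edgeR test at an adjusted p under 0.05. Slc7a3 lies farthest to the right at 1.30 in endoderm and 2.57 in mesoderm, and Cth in mesoderm lies farthest to the left at -1.53.

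The 6 calls of a rise in mesoderm, the fall of Cth there, and the rises of Mthfd2, Slc7a5 and Slc7a3 in endoderm held under all 14 alternative settings tried, which included other scalings, other tests and leaving out each library compared. The libraries also differed in genes used as markers of other cells. Fibroblast and feeder markers (8 genes, of which 6 were tested) summed to 261, 133 and 76.0 CPM in knockout endoderm, against 73.0, 18.7 and 27.7 CPM in wild type endoderm. They summed to 209, 106 and 88.0 CPM in knockout mesoderm, against 99.5, 22.7 and 45.5 CPM in wild type mesoderm. Of the 6 tested markers, 4 rose in knockout endoderm and 1 in knockout mesoderm, and Lum was without counts in wild type endoderm. Library 1 had the highest fibroblast sum in each of the 4 groups. In knockout endoderm this library had the lowest Slc7a5, Slc7a3, Mthfd2, Psat1, Shmt2 and Slc7a11 of its group and the highest Slc3a2, Phgdh and Cth. In wild type endoderm library 1 had the highest Slc7a5, Slc3a2, Psat1, Phgdh and Mthfd2 and the lowest Slc7a3, Shmt2 and Cth. Whether fibroblasts or feeder cells were present, and what part they had in the differences, was not tested. Pluripotency markers (6 genes) summed to 334 to 364 CPM in knockout endoderm, against 330 to 386 CPM in wild type endoderm, and to 344 to 380 CPM in knockout mesoderm, against 299 to 357 CPM in wild type mesoderm. These sums hold members that moved both ways, 2 higher and 1 lower in knockout endoderm and 1 higher and 1 lower in knockout mesoderm. Pou5f1 made up most of each pluripotency sum. It averaged 255 CPM in knockout and 242 CPM in wild type endoderm, and 252 CPM in knockout and 223.5 CPM in wild type mesoderm. Neural markers (4 genes) summed to 110 to 119 CPM in knockout endoderm, against 121 to 130 CPM in wild type endoderm, and to 72.0 to 86.5 CPM in knockout mesoderm, against 69.4 to 96.8 CPM in wild type mesoderm. Trophoblast markers (4 genes) summed to 15.6 to 23.8 CPM in knockout endoderm, against 48.0 to 56.7 CPM in wild type endoderm, and to 22.7 to 28.0 CPM in knockout mesoderm, against 47.4 to 103 CPM in wild type mesoderm. Of the 4 trophoblast markers 2 fell in knockout endoderm and 4 in knockout mesoderm, and neither of the 2 neural markers tested was called. Cdx2 averaged 15.3 CPM in wild type mesoderm, was without counts in wild type endoderm, and averaged at most 0.0969 CPM in the knockout groups. Which cells these 4 genes mark here was not tested. Krt8 made up most of each trophoblast sum. Krt8 averaged 19.6 CPM in knockout and 45.9 CPM in wild type endoderm, and 23.9 CPM in knockout and 53.4 CPM in wild type mesoderm. Nes made up most of each neural sum, at group means of 75.3 to 123 CPM. Sox1 and Pax6 averaged at most 1.37 CPM and were not tested. A sum led by 1 gene does not show that cells of that type were present.

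Levels of different genes can be set side by side only per length, here as CPM per kilobase of exon. In knockout endoderm Slc7a3 had the highest mean of the 10 genes at 35.6 CPM per kilobase, ahead of Slc7a5 at 26.3 and Phgdh at 23.0. In wild type endoderm Slc7a5 and Phgdh led, both at 18.6, ahead of Slc3a2 at 16.2 and Slc7a3 at 14.4. In knockout mesoderm Slc7a5 led at 29.5 CPM per kilobase, ahead of Phgdh at 22.1 and Slc3a2 at 21.3. In wild type mesoderm Phgdh led at 18.2, while Slc7a3 at 3.05 and Mthfd2 at 2.60 were the lowest 2 of the 10. Slc7a3 thus stood first of the 10 in knockout endoderm and next to last in wild type mesoderm.

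Slc7a5 and Slc7a11 each join Slc3a2 at the protein level, so their transcript ratios were computed within each library, from counts per kilobase of exon. The ratio of Slc7a5 to Slc3a2 was 1.15, 1.30 and 1.40 in knockout endoderm, against 1.13, 1.17 and 1.14 in wild type endoderm, with overlap. It was 1.36, 1.44 and 1.35 in knockout mesoderm, against 1.12, 0.899 and 1.04 in wild type mesoderm, where the groups did not overlap. The ratio of Slc7a11 to Slc3a2 was 0.203, 0.230 and 0.232 in knockout endoderm, against 0.276, 0.315 and 0.270 in wild type endoderm, and 0.168, 0.231 and 0.254 in knockout mesoderm, against 0.369, 0.445 and 0.336 in wild type mesoderm. The ratio of Slc7a11 to Slc3a2 was thus lower in every knockout library than in every wild type library of its lineage. Slc3a2 itself rose in knockout cells of both lineages, while Slc7a11 was called in neither. No test was made on these ratios, which follow from the levels above.

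**Figure D3:**
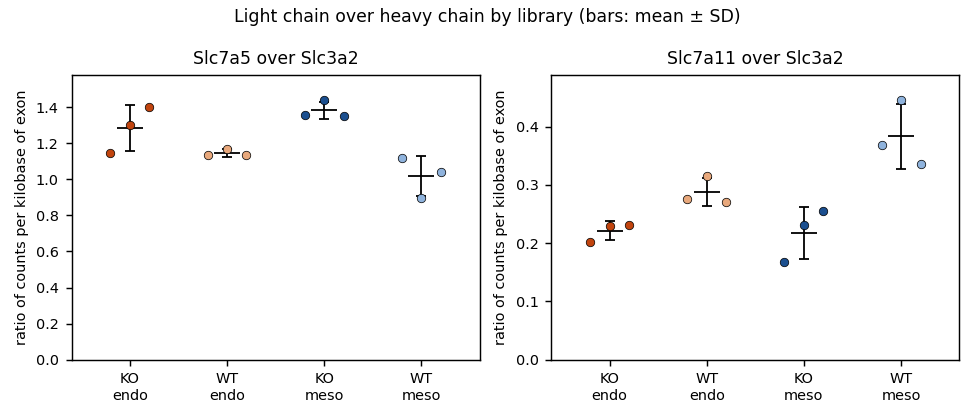
Ratio of the light chain to the heavy chain transcript per library (vertical axes, linear and starting at 0, counts per kilobase of exon of Slc7a5 or Slc7a11 over those of Slc3a2) in the 4 groups, with mean ± SD of 3 libraries. The mean ratio of Slc7a11 to Slc3a2 is 0.221 in knockout endoderm, 0.287 in wild type endoderm, 0.218 in knockout mesoderm and 0.384 in wild type mesoderm.

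Whether the knockout effect differed between the lineages was tested as the interaction, the log2 fold change in endoderm minus that in mesoderm. Of the 10 genes 2 passed, Slc7a3 and Cth, beside 1.40% of all tested genes in either direction. The median interaction was -0.39 over the 10 genes and -0.00047 over all tested genes. For Cth the difference was 2.00 ± 0.41 (SE, edgeR adjusted p = 0.0107). It remained past the threshold in 18 of 19 alternatives and was lost without wild type mesoderm library 3, at 1.61 (edgeR adjusted p = 0.0516). For Slc7a3 it was -1.27 ± 0.31 (edgeR adjusted p = 0.0386), a larger fold change in mesoderm. That call was lost in 9 of 19 alternatives, with DESeq2 (adjusted p = 0.338) and when any of 8 single libraries was left out, with edgeR adjusted p from 0.0587 without knockout endoderm library 1 to 0.225 without wild type mesoderm library 3. The other 6 of these libraries were wild type endoderm libraries 2 and 3, knockout endoderm library 2, wild type mesoderm library 2 and knockout mesoderm libraries 1 and 2. Without wild type mesoderm library 1 the interaction of Slc7a3 was -2.00. In CPM the rise of Slc7a3 was not larger in mesoderm. Its mean went from 54.3 in wild type to 135 in knockout endoderm, and from 11.6 in wild type to 69.3 in knockout mesoderm. For Slc7a5 the difference was -0.59 ± 0.15 and fell just short (edgeR adjusted p = 0.0535), but it passed in 4 of 19 alternatives, the lowest without wild type mesoderm library 1 (edgeR adjusted p = 0.00295). Psat1 had an interaction of -0.45 ± 0.18 (edgeR adjusted p = 0.321), which passed only without that same library (edgeR adjusted p = 0.00739). The fold changes of Mthfd2, Slc3a2, Shmt2 and Psat1 were larger in mesoderm, but their interactions did not pass, so a difference between lineages was not shown for them.

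The interaction can be read from the lineages within each genotype, which share their libraries with the comparisons above. In knockout cells, endoderm against mesoderm, 1 of the 10 genes passed, beside 1.86% of all tested genes in either direction. It was Slc7a3, with 135 ± 13.3 CPM in knockout endoderm and 69.3 ± 11.6 CPM in knockout mesoderm, 1.95-fold higher in endoderm (log2 0.97 ± 0.18, edgeR adjusted p = 0.00468). This call was lost with DESeq2 (adjusted p = 0.180) and without knockout mesoderm library 3 (edgeR adjusted p = 0.0616). Cth averaged 9.60 ± 1.34 CPM in knockout endoderm and 5.95 ± 2.16 CPM in knockout mesoderm (log2 0.65 ± 0.30, edgeR adjusted p = 0.376). In wild type cells, in the same comparison, 5 of the 10 genes were higher in endoderm and 1 was lower, beside 4.41% and 5.43% of all tested genes. Slc7a3 averaged 54.3 ± 8.23 CPM in wild type endoderm and 11.6 ± 7.51 CPM in wild type mesoderm (SD, n = 3 each), 4.72-fold higher in endoderm (log2 2.24 ± 0.24, edgeR adjusted p = 1.20e-06). Without wild type mesoderm library 1 this log2 fold change was 2.97. Cth averaged 6.78 ± 1.66 CPM in wild type endoderm and 17.2 ± 6.33 CPM in wild type mesoderm, 2.55-fold lower in endoderm (log2 -1.35 ± 0.27, edgeR adjusted p = 0.00164). Without wild type mesoderm library 3 that call of Cth was just lost (edgeR adjusted p = 0.0512). Psat1, Shmt2, Mthfd2 and Slc7a5 were higher in endoderm by log2 0.35 to 0.61, with edgeR adjusted p from 0.0139 for Slc7a5 to 0.0481 for Shmt2. These 4 calls were less steady, and they held in 11 of 14 alternatives for Slc7a5, 9 for Psat1, 6 for Mthfd2 and 1 for Shmt2. Leaving out 1 wild type library ended the call of Slc7a5 for endoderm library 1 and mesoderm libraries 2 and 3, and that of Psat1 for these and endoderm library 2, with edgeR adjusted p up to 0.117 and 0.234 without mesoderm library 3. It ended the call of Mthfd2 for each library but mesoderm library 1 (edgeR adjusted p up to 0.366), and that of Shmt2 for any of the 6 (edgeR adjusted p up to 0.192). The median log2 fold change of the 10 genes, endoderm over mesoderm, was 0.018 in knockout and 0.32 in wild type, where the medians over all tested genes were -0.0072 and 0.0081.

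The wild type mesoderm libraries were not alike in these genes. Library 1 had the highest Psat1, Phgdh, Mthfd2, Slc7a5, Slc3a2 and Slc7a3 and the lowest Cth and Asns of its group. The same library had the lowest sum of streak and mesoderm markers, 226 CPM against 364 and 472 CPM in wild type mesoderm libraries 2 and 3, and the highest fibroblast sum. The part of either in these differences was not tested.

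Likeness to the mean profile of the 10 genes was measured as the root mean square difference of standardised log2 CPM over the 12 libraries over genes with a mean of at least 5 CPM. The 6 genes outside the set with the smallest difference were Usp10 (0.278), Rexo2 (0.285), Kbtbd11 (0.308), Utp14a (0.316), Mycn (0.321) and Myb (0.325). Usp10, a deubiquitinase, averaged 132 ± 3.02 CPM in knockout endoderm, 104 ± 0.480 in wild type endoderm, 130 ± 9.31 in knockout mesoderm and 91.2 ± 6.93 in wild type mesoderm (SD, n = 3 each). Mycn, the transcription factor N-Myc, averaged 45.0 ± 4.97 CPM in knockout endoderm, 31.8 ± 0.868 in wild type endoderm, 41.0 ± 0.243 in knockout mesoderm and 25.5 ± 5.89 in wild type mesoderm. Among the 10 genes, Mthfd2 lay closest to the mean profile at 0.261, while Slc7a11 at 1.35, Asns at 1.59 and Cth at 1.73 lay farthest. The mean profile includes each member, so their own distances are understated.

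The factor that names the set, Atf4, was not called. Its mRNA averaged 27.5 ± 3.76 CPM in knockout endoderm and 30.5 ± 6.81 CPM in wild type endoderm (edgeR adjusted p = 0.602), and 25.4 ± 2.97 CPM in knockout mesoderm and 23.4 ± 1.30 CPM in wild type mesoderm (edgeR adjusted p = 0.700). Atf4 is controlled largely in translation, which counts of RNA do not measure. The counts for this and the following lists stand beside the shares of all tested genes given above, 5.78% that rose and 6.92% that fell in endoderm and 8.93% and 10.2% in mesoderm, and in short lists 1 or 2 calls are near those shares. Among 13 tested stress response factors of its pathway, 1 rose and 1 fell in endoderm (median log2 0.10), and 3 rose and 2 fell in mesoderm (median log2 0.14). Eif4ebp1, an inhibitor of cap-dependent translation, rose in both lineages (log2 0.71 in endoderm, edgeR adjusted p = 0.00146, and 0.69 in mesoderm, edgeR adjusted p = 0.00175). Vldlr, a lipoprotein receptor listed among Atf4 targets, fell in both (log2 -2.23 in endoderm, edgeR adjusted p = 4.90e-06, and -1.11 in mesoderm, edgeR adjusted p = 0.0234). Ddit3, the stress factor CHOP, had 53 counts in knockout endoderm and 44 in wild type endoderm (edgeR adjusted p = 0.908). In mesoderm it had 51 counts in knockout and 20 in wild type, with overlap in CPM, and rose (log2 1.50 ± 0.43, edgeR adjusted p = 0.0158). Chac1, a glutathione-degrading enzyme, had 33 counts in knockout endoderm and 12 in wild type endoderm (edgeR adjusted p = 0.111), and 28 in knockout mesoderm and 7 in wild type mesoderm (log2 2.10 ± 0.59, edgeR adjusted p = 0.0148). Trib3, a pseudokinase that restrains the response, had log2 fold changes of -0.47 ± 0.37 in endoderm (edgeR adjusted p = 0.481) and 0.74 ± 0.42 in mesoderm (edgeR adjusted p = 0.246).

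Of 8 genes for the eIF2 alpha kinases, their regulators, eIF2 alpha itself and a phosphatase subunit, 1 rose and 1 fell in each lineage. Their median log2 fold changes were -0.014 in endoderm and 0.13 in mesoderm. The rise was that of Eif2ak2, the double-stranded RNA kinase PKR and an interferon-induced gene, at log2 2.22 in endoderm (edgeR adjusted p = 6.59e-08) and 0.97 in mesoderm (edgeR adjusted p = 0.000919). Impact, an inhibitor of the amino acid sensing kinase GCN2, fell in both (log2 -0.64, edgeR adjusted p = 0.000144, and -0.61, edgeR adjusted p = 0.000247). Eif2ak2 averaged 34.8 ± 1.13 CPM in knockout endoderm and 7.62 ± 2.46 CPM in wild type endoderm, and 29.6 ± 3.13 CPM in knockout mesoderm and 14.3 ± 4.72 CPM in wild type mesoderm (SD, n = 3 each).

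Other enzymes of the same pathways were counted in the same way. Of 18 other serine, glycine and one-carbon genes, none rose and 1 fell in endoderm, and 3 rose and none fell in mesoderm (medians log2 0.12 and 0.11). Shmt1, the cytosolic counterpart of Shmt2, had log2 0.07 in endoderm (edgeR adjusted p = 0.787) and rose by log2 0.59 in mesoderm (edgeR adjusted p = 0.00171). Mthfd1, the cytosolic one-carbon enzyme, had log2 0.15 in endoderm (edgeR adjusted p = 0.357) and rose by log2 0.35 in mesoderm (edgeR adjusted p = 0.0145). Aldh1l1, which oxidises formyltetrahydrofolate, fell in endoderm (log2 -1.31, edgeR adjusted p = 0.00918). Of 17 other amino acid synthesis genes, none rose and 3 fell in endoderm, and 5 rose and 2 fell in mesoderm (medians log2 0.010 and 0.20). Oat, ornithine aminotransferase, fell in both lineages (log2 -1.03, edgeR adjusted p = 3.49e-06, and -1.39, edgeR adjusted p = 1.18e-07). Got2, the mitochondrial aspartate aminotransferase, rose in mesoderm (log2 0.42, edgeR adjusted p = 0.00318).

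Charging enzymes and carriers outside the set were tested as well. Of 20 cytosolic aminoacyl-tRNA synthetases, 3 rose and none fell in endoderm, and 8 rose and none fell in mesoderm (medians log2 -0.016 and 0.18). Kars, Aars and Farsa, which charge the tRNAs of lysine, alanine and phenylalanine, rose in both lineages, by log2 0.46, 0.45 and 0.49 in endoderm and 0.52, 0.61 and 0.65 in mesoderm. Kars averaged 176 ± 11.7 CPM in knockout endoderm and 128 ± 6.05 CPM in wild type endoderm (edgeR adjusted p = 0.00112). Of 22 other amino acid transporters, 1 rose and 2 fell in endoderm, and 3 rose and 4 fell in mesoderm (medians log2 0.10 and 0.094). Slc16a10, an aromatic amino acid carrier, fell in mesoderm (log2 -2.63, edgeR adjusted p = 1.15e-05), with 5.59, 6.15 and 6.93 CPM in knockout, against 15.5, 44.8 and 55.7 CPM in wild type. Slc1a4, a carrier of alanine, serine and cysteine, fell in endoderm (log2 -0.60, edgeR adjusted p = 0.0175) and mesoderm (log2 -1.19, edgeR adjusted p = 4.44e-05). Slc38a4, a carrier of neutral amino acids, fell in mesoderm (log2 -1.09, edgeR adjusted p = 0.00185).

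Glutathione and Nrf2 target genes, among them the enzymes that build glutathione from cysteine, had the highest share of calls of the 7 related lists in both lineages. Of 12 tested, 7 rose and 1 fell in endoderm, and 6 rose and 1 fell in mesoderm (medians log2 0.46 and 0.34). Gclm, the modifier subunit of the first enzyme of glutathione synthesis, averaged 79.9 ± 5.79 CPM in knockout endoderm and 34.4 ± 4.11 CPM in wild type endoderm (log2 1.23, edgeR adjusted p = 7.54e-08). In mesoderm it averaged 81.9 ± 3.08 CPM in knockout and 38.7 ± 5.83 CPM in wild type (log2 1.08, edgeR adjusted p = 8.93e-07). Gclc, the catalytic subunit, rose by log2 0.73 in endoderm (edgeR adjusted p = 5.42e-05) and 0.63 in mesoderm (edgeR adjusted p = 0.000283). Gpx4, the glutathione peroxidase of membrane lipids, fell in both lineages (log2 -1.36, edgeR adjusted p = 0.00195, and -1.49, edgeR adjusted p = 0.000232). Slc7a11, often listed with both Atf4 and Nrf2 targets, was not called beside them.

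**Figure D4:**
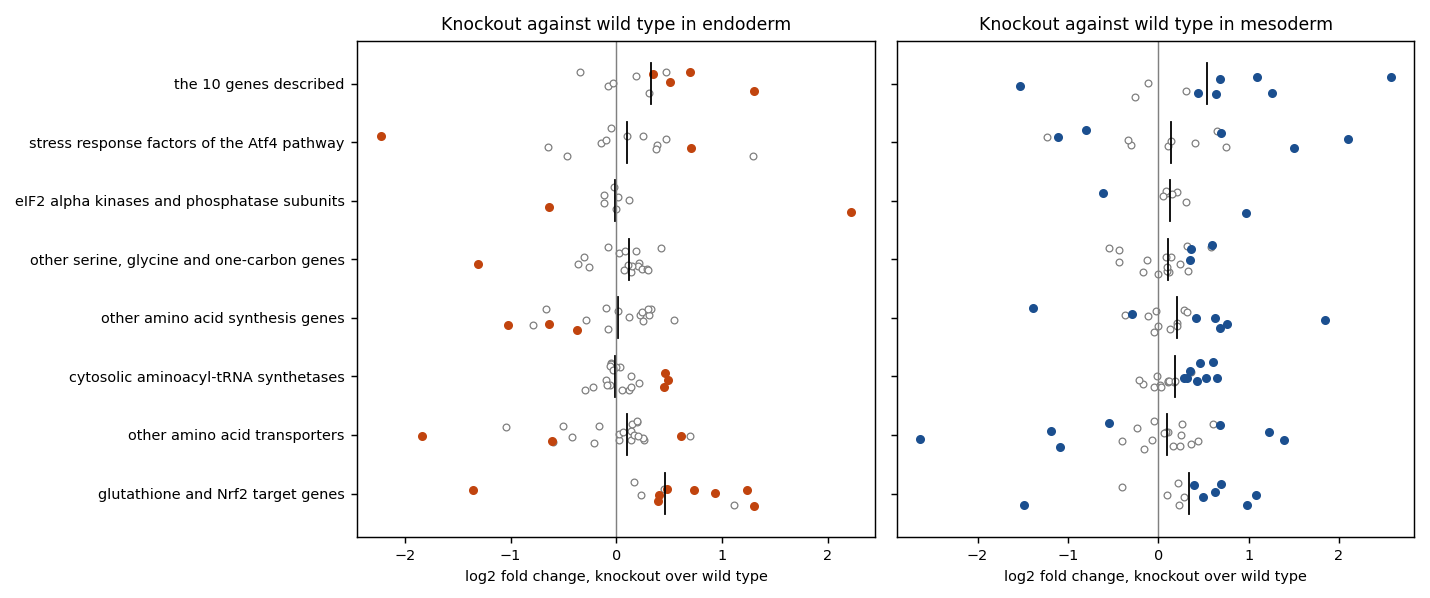
Log2 fold change of knockout over wild type (horizontal axis) for each tested gene of the 10 described and of 7 lists of related genes, in endoderm (left) and mesoderm (right). Filled points passed the edgeR test at an adjusted p under 0.05, open points did not, and vertical lines are list medians. The median of the 10 genes is 0.32 in endoderm and 0.54 in mesoderm, and that of the glutathione and Nrf2 target genes 0.46 and 0.34.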

How the data were processed

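The authors deposited a table of read counts, whole numbers in every library for 19654 of 19680 genes. The submitters' processing notes name STAR, DESeq2 and the build mm10. Tool versions, the annotation, the counting program and how it used strand are not given in the sources used. Libraries were made with a directional kit, per the labels' protocols. Groups and replicate numbers came from the sample titles. Each library counted as 1 sample, and no pair of replicates held identical counts.

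The other 26 genes, with a date in place of a count, were left out, and 346 of 347 genes without a symbol were named from RefSeq by identifier. Rn45s took 79.7% to 82.4% of the counts and entered neither library sizes nor tests. Mir6236 and Lars2, with 49.7% to 69.5% of the rest, were kept. Counts were fitted in R 4.3.3 with edgeR 4.0.16, with trimmed mean of M values scaling, filterByExpr at a minimum count of 10 and 4 group means over all 12 libraries. Contrasts were tested by quasi-likelihood, and p-values were adjusted over the 11635 genes tested (Benjamini-Hochberg, called at 0.05). Standard errors are the log2 fold change over the root of F. The common biological coefficient of variation was 9.71%. Alternatives were other scalings, Mir6236 and Lars2 left out, no filter, DESeq2 1.42.0, limma-voom (limma 3.58.1), only the libraries compared, a replicate block, and each library left out. The procedure was tested on simulated data.

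CPM are counts over the scaled library sizes without Rn45s. Floors use the library sizes before scaling and cover counting error only. Exon lengths are the union of exons per gene in GENCODE vM21. Gene spans and promoter windows are RefSeq GRCm38.p6, the assembly released as mm10. The 10 genes and all lists were chosen with earlier results of these data known, so counts over them are descriptions. Named beyond the 10 were Atf4, Ddit3, Trib3 and Chac1, up to 3 genes per list by smallest adjusted p among calls in a genotype comparison, and the 6 most alike profiles, leaving out predicted gene models. Arid4b and Snx12 were named after their values were seen, and 1 result that the rule covers is not reported here.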

Additional observations from a re-analysis of the deposited data

Results flagged for a closer look

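The knockout effect on Cth differed between the lineages by a test of the difference itself. The interaction, endoderm minus mesoderm, was 2.00 on the log2 scale (edgeR adjusted p = 0.0107), with 9.60 CPM in knockout endoderm and 6.78 CPM in wild type endoderm, and 5.95 CPM in knockout mesoderm and 17.2 CPM in wild type mesoderm. In mesoderm 3 of 3 knockout libraries lay below the lowest wild type library, while the endoderm groups overlapped. The call was lost without wild type mesoderm library 3 (edgeR adjusted p = 0.0516).

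The knockout effect on Slc7a3 differed as well on the log2 scale, with an interaction of -1.27 (edgeR adjusted p = 0.0386). Slc7a3 rose in both lineages, where each of the 3 knockout libraries exceeded all wild type ones, so the difference is one of the size of the fold change. The call was lost in 9 of 19 alternatives, with DESeq2 (adjusted p = 0.338) and when any of 8 single libraries was left out (edgeR adjusted p up to 0.225).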

How the results depend on the processing

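Depth limits the rarest genes: 3 counts are 0.449 to 1.54 CPM, so Chac1, Trib3 and Ddit3 rest on few reads. The 10 genes stood above that in every library, but some of their counts were small too. Cth had 20, 13 and 31 counts in knockout mesoderm and 17 in wild type endoderm library 1. In wild type mesoderm library 2, Slc7a3 had 15 counts and Mthfd2 17. In the endoderm and mesoderm comparisons of knockout with wild type, the number of the 10 genes called was 3 to 4 and 7 to 8 over the settings that left out 1 library. The numbers of all genes called were 836 (without wild type endoderm library 2) to 1321 against 1478, and 1472 (without wild type mesoderm library 3) to 2467 against 2222.

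For the interaction, 1 of the 10 genes was called with DESeq2, and 0 (without wild type mesoderm library 3) to 4 (without wild type mesoderm library 1) when 1 library was left out, against 2. All genes called were 377 with no filter, 255 with the replicate block, and 104 (without knockout mesoderm library 2) to 354 (without wild type mesoderm library 1) when 1 library was left out, against 163. For endoderm against mesoderm in knockout, 0 of the 10 were called with DESeq2 and 0 to 1 when 1 library was left out, against 1. All genes called were 483 with no filter, 377 with the replicate block, and 59 (without knockout mesoderm library 3) to 237 when 1 library was left out, against 216. In wild type, 3 of the 10 were called when only the libraries compared were fitted, and 1 (without wild type mesoderm library 3) to 6 when 1 library was left out, against 6. All genes called were 741 (also without wild type mesoderm library 3) to 1391, against 1145.

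Fold changes near 0 that were not called changed sign. The interaction of Phgdh was -0.0093 with upper-quartile factors, -0.0028 with no filter, -0.015 with limma-voom and -0.14 to 0.18 when 1 library was left out. Endoderm over mesoderm in knockout, Asns was -0.00046 with RLE size factors, -0.013 with upper-quartile factors, -0.0016 with Mir6236 and Lars2 left out, -0.0078 with only the libraries compared and -0.14 to 0.23 when 1 library was left out. Over the settings that left out 1 library, Slc7a11 ran from -0.097 to 0.012 in endoderm and -0.27 to 0.017 in mesoderm. The interaction of Asns ran from -0.23 to 0.14 and that of Slc7a11 from -0.044 to 0.24. Endoderm over mesoderm in knockout, Slc7a11 ran from -0.15 to 0.089, Mthfd2 from -0.039 to 0.16, Psat1 from -0.010 to 0.078 and Phgdh from -0.013 to 0.17, and in wild type Phgdh ran from -0.13 to 0.20 and Asns from -0.014 to 0.16. Of all settings of single genes, 661 kept their side of the threshold and direction, 46 lost the call, 8 gained it and 35 changed sign. The cause was not tested. Pairing was looked at in what remained of each gene's log2 CPM after the mean of its group was taken away. These remainders correlated by 0.013 to 0.19 between same-numbered libraries of groups that share a lineage or a genotype. Not all of these correlations were above 0.1, and no label says what a number shares, so the numbers were not taken to pair the samples. In 9 of 12 libraries the best match had the same number, a hint of pairing from the data and not the design. The replicate block gave Slc7a5 a call in the interaction (edgeR adjusted p = 0.0290).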
